A study of Rattus norvegicus with 241 samples.

Results

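The libraries described here come from sorted luminal mammary epithelial cells of 7 virgin female ACI rats that never received estradiol and had no tumor. They were chosen by their labels alone: the luminal sort, no estradiol pellet, and the drug or control arm of the estradiol experiment. They number 7 of the 241 samples of the series, 3 from rats given the TGFβ receptor inhibitor (TGFBRi) and 4 from rats given vehicle. TGFBRi is LY2157299, an inhibitor of the type I TGFβ receptor kinase, gavaged at 75 mg/kg 2 times a day for 21 days from 38 days of age. At 60 days of age these rats received empty silastic implants, while other rats of the experiment received implants with estradiol (E2), which causes mammary tumors in the ACI strain. All were killed at the end of the tumor experiment, so the comparison asks what remained of a peripubertal treatment in luminal cells long after dosing had stopped, with no carcinogenic hormone added. Cells were gated as CD24+CD29low within the CD31-CD45- fraction, and RNA was made into low-input libraries. The single strain, the female sex and the single drug limit what the comparison models.

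TGFβ ligands bind a type II receptor that activates a type I receptor, which phosphorylates SMAD2 and SMAD3, and these enter the nucleus with SMAD4. In the mammary gland the pathway is known to restrain ductal growth, to restrain milk protein synthesis in the virgin gland and to drive matrix production. Luminal cells comprise hormone-sensing cells, which carry the estrogen and progesterone receptors, and alveolar-type progenitors, which carry ELF5 and KIT and give rise to the milk-secreting cells.

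Between 18561677 and 52314784 reads per library fell on genes, the highest in TGFBRi rat 3. Values below are normalized counts, that is, reads on a gene divided by the size factor of the library, with gene symbols as deposited. The luminal label held in all 7 libraries: KRT8 was at 155165 to 333364 and EPCAM at 85519 to 188479, against 896 to 4750 and 482 to 1873 in the CD45+ leukocyte libraries of the same rats. The leukocyte gene PTPRC was at 0 to 276 in the luminal libraries and at 23929 to 28977 in the CD45+ libraries. The hormone label could be read from the milk protein genes, 5 of whose 12 members were higher in every one of the 10 rats with E2 than in any of the 7 without, as were 121 of 13590 genes (0.89%). Rats of the same arm were no more alike than rats of different arms. Pearson's r across 9620 genes of log2(normalized count + 1), whose points share libraries and depth, had a median of 0.853 over the 9 pairs within an arm and 0.866 over the 12 pairs between arms.

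No gene was called by limma, edgeR and DESeq2 alike. Of 13590 genes tested with limma, 2 passed an adjusted p of 0.05, which is 0.0147% of those tested, and both were higher after TGFBRi. Both had reads in the 3 TGFBRi rats alone among the 17 rats, so they passed the filter on low values only through the group in which they were high, and neither call held in the count tests or in a fit of the 7 rats. They were FGF10, a fibroblast growth factor that is known to come from mesenchyme and to signal to mammary epithelium, and PCDHA8, a clustered protocadherin, one of a family of neuronal adhesion molecules. Both are low genes that lie under the mean of 50 set for the named genes, and they are described because they alone passed. The median log2 fold change of all genes was 0.02, and 52.6% were above 0.

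FGF10 was at 19.3, 14.6 and 21.5 normalized counts in TGFBRi rats 1 to 3, which correspond to 23, 11 and 47 reads. It had no read in any of the 4 vehicle rats. Every treated rat was thus above every control, and the mean of 18.5 ± 3.51 (SD, n = 3) was at least 4.67-fold higher than 3.95, the highest value that 3 reads would have had in any vehicle library. The log2 fold change on the scale of log2(normalized count + 1) was 4.27 ± 0.60 (SE), with an adjusted p of 0.00894 by limma. FGF10 had no read in the 10 rats with E2 either, whichever arm they belonged to. The CD45+ libraries of the same rats held 4.49, 4.31 and 2.08 normalized counts after TGFBRi and 0, 0, 3.21 and 0 after vehicle, so a trace of FGF10 lay outside the luminal sort as well, with overlapping arms.

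PCDHA8 was at 40.3, 17.3 and 20.6 normalized counts in TGFBRi rats 1 to 3, from 48, 13 and 45 reads, and without a read in the 4 vehicle rats and the 10 rats with E2. The treated mean of 26 ± 12.4 (SD, n = 3) was at least 6.59-fold higher than the same limit. Its log2 fold change was 4.66 ± 0.62 (SE), with an adjusted p of 0.00876 by limma. Protocadherin alpha genes share their last exons, and which part of the gene these reads fell on was not examined. The calls for both genes were lost in several other fits. In the fit of 17 rats, every group but TGFBRi without E2 was constant at 0 for both genes, which lowered their estimated spread. When the 7 rats were fitted without the rats with E2, the adjusted p by limma was 1 for FGF10 and 0.919 for PCDHA8. It was between 0.0518 and 0.0666 for both without vehicle rat 1, 2 or 4 or without TGFBRi rat 3. Count tests on the recovered reads did not call either gene, with an adjusted p of 1 by edgeR and by DESeq2.

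**Figure D1:**
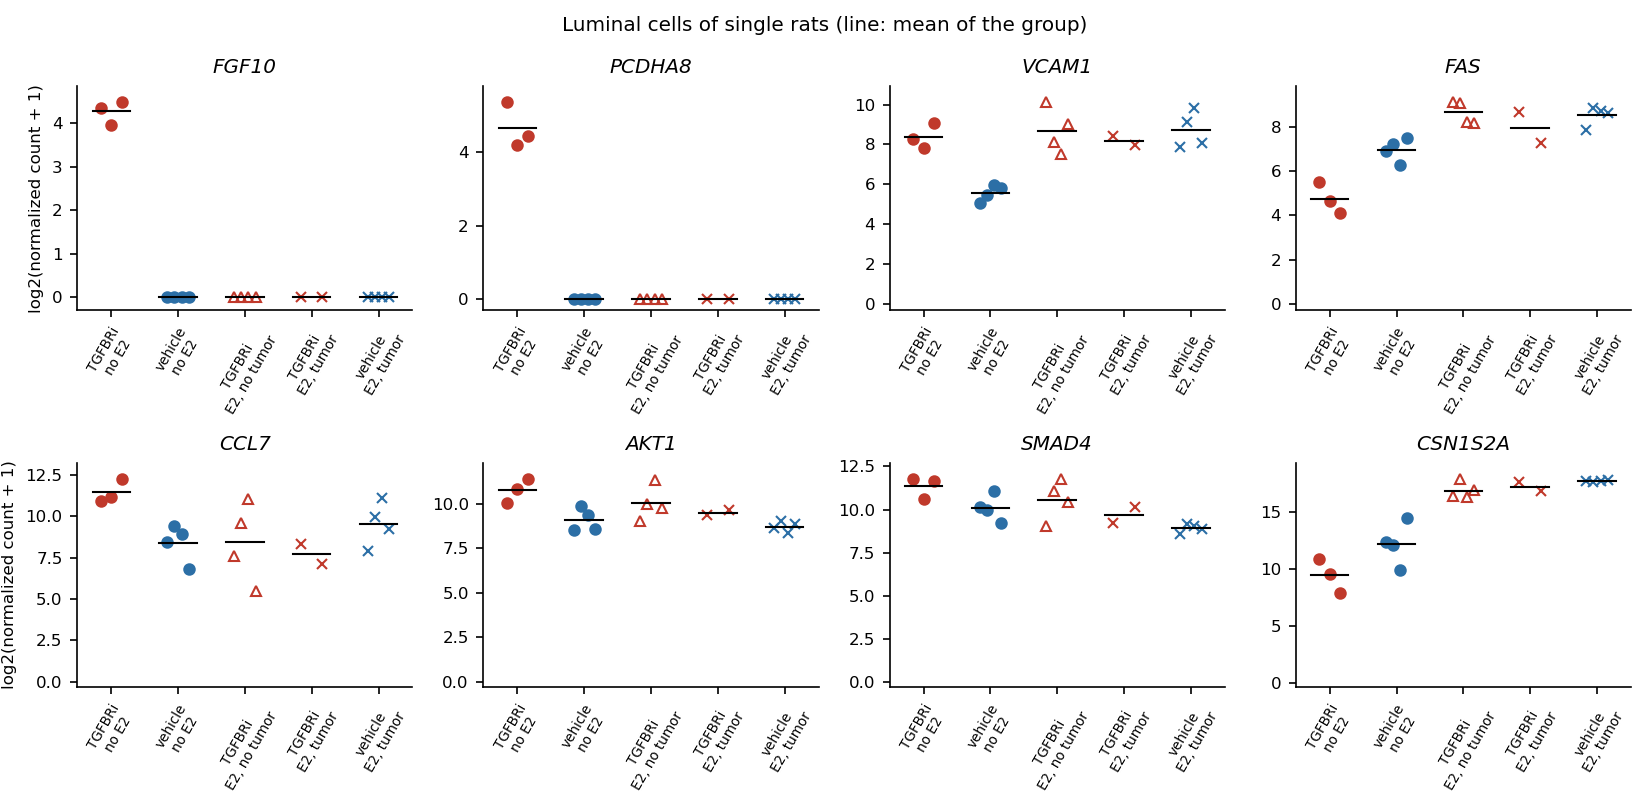
Normalized counts on the log2(value + 1) scale for 8 genes in the luminal cells of single rats, by arm, E2 and tumor status, with a line at the mean of each group. FGF10 and PCDHA8 were seen only in the 3 TGFBRi rats without E2, and CSN1S2A was far higher in all 10 rats with E2. VCAM1 and FAS were chosen because their arms did not overlap without E2. With E2 their arms overlapped, and neither gene passed the test of a dependence on E2 by limma.

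Among genes with a mean of 50 or more over the 7 rats, none passed by limma. The arms did not overlap for 191 of 9620 such genes with TGFBRi higher (1.99%) and for 94 with TGFBRi lower (0.977%). The genes that follow were taken from these by their unadjusted p, up to 15 in each direction, and none of them passed the adjusted threshold by limma. The strongest of the higher ones was VCAM1, the adhesion molecule to which integrins of leukocytes bind. VCAM1 stood at 307, 227 and 529 normalized counts in TGFBRi rats 1 to 3 and at 32.7, 43.5, 62.3 and 55.4 in vehicle rats 1 to 4. The lowest treated rat was well above the highest control. The log2 fold change was 2.80 ± 0.58 (SE, 95% interval 1.58 to 4.01), with an adjusted p of 0.456 by limma and of 0.00181 by DESeq2.

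FAS, the death receptor that starts apoptosis when its ligand binds, was the strongest of the lower genes. It stood at 45.3, 23.9 and 16.5 normalized counts after TGFBRi and at 120, 149, 77 and 183 after vehicle. By the rule that chose it the arms did not overlap, with all treated rats low. The log2 fold change was -2.22 ± 0.49 (SE, 95% interval -3.26 to -1.19), with an adjusted p of 0.709 by limma and of 0.00862 by DESeq2. In the rats with E2 neither gene separated the arms: VCAM1 was at 184 to 1109 in tumor-free TGFBRi rats and at 233 to 893 in tumor-bearing vehicle rats, and FAS at 289 to 562 and 231 to 466. The 2 tumor-bearing TGFBRi rats with E2 were at 338 and 254 for VCAM1 and at 412 and 154 for FAS. Vehicle rats without E2 had the lowest VCAM1 of the 5 groups and TGFBRi rats without E2 the lowest FAS. The difference between the effect without and with E2 was 2.81 ± 0.79 (SE, log2) for VCAM1 and -2.36 ± 0.67 for FAS, with adjusted p of 0.723 and 0.756 by limma. Both genes were chosen for their effect without E2, which is part of this difference.

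The 250 bases before the start sites of Fgf10 and Vcam1 are shown because these genes were among the strongest of the higher ones. They are RefSeq sequences of the GRCr8 assembly, which is not the rn6 build of the counts, Fgf10 at chr2:52533689-52533938 on the plus strand and Vcam1 at chr2:206742784-206743033 on the minus strand. Capitals mark matches, on either strand, to the SMAD-binding element CAGAC or to the NF-κB consensus.
Fgf10: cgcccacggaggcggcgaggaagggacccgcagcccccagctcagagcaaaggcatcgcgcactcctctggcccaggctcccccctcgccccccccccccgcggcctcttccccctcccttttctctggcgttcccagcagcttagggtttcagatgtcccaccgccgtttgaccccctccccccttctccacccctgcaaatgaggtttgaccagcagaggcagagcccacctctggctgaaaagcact
Vcam1: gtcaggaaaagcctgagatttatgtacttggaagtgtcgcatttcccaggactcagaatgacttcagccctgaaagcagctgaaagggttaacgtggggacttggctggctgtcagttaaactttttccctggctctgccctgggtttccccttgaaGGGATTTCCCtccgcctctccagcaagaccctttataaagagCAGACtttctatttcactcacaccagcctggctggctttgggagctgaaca
The Vcam1 window held 1 CAGAC, ending 47 bases before the start site, and 1 NF-κB match, ending 84 bases before it, while neither was found in the Fgf10 window. Of 33469 rat promoter windows of the same length, 42.9% held CAGAC and 3.54% an NF-κB match.

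The other higher genes included CCL7 and AKT1. CCL7, a chemokine that draws monocytes, was at 1945, 2327 and 4911 normalized counts after TGFBRi and at 341, 679, 492 and 110 after vehicle, a log2 fold change of 3.07 ± 0.99 (SE). Its neighbor CCL2, also a monocyte chemokine, was at 7053, 16206 and 14940 against 1736, 4392, 3581 and 1385. All treated rats were above all controls for both chemokines, with adjusted p of 1 by limma. AKT1, a kinase of growth factor signaling, was at 1052, 1808 and 2691 after TGFBRi and at 361, 912, 650 and 373 after vehicle, a log2 fold change of 1.70 ± 0.46 (SE) with an adjusted p of 1. With E2, AKT1 was at 518 to 2571 in the tumor-free TGFBRi rats and at 323 to 524 in the tumor-bearing vehicle rats, so its difference had the same sign there, with a 95% interval of 0.40 to 2.20 (log2). That comparison sets tumor-free treated rats against tumor-bearing controls, so drug and tumor status cannot be told apart in it. The 2 tumor-bearing TGFBRi rats, which match the controls in tumor status, had 646.5 and 790 normalized counts of AKT1, both above those controls, a difference that was not tested.

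The remaining higher genes of this set were PLPP3, C1QB, PPP1R14C, BRD1, HDGFL3, CIB2, GSN, GFPT2, SLC7A4, TMEM38A, AGT and CFD. C1QB, a chain of complement C1q made by macrophages, was at 128, 315 and 270 against 75.4, 47.4, 57.4 and 70.4, and GSN, the actin-severing protein gelsolin, at 22257, 44113 and 47065 against 11072, 6746, 11679 and 9512. PLPP3, a lipid phosphate phosphatase, was at 3270, 2763 and 5893 against 514, 1116, 1519 and 1469. By the rule that chose them, the lowest treated rat exceeded the highest control in each of these. AGT, the angiotensin precursor, and CFD, the complement factor known as adipsin, lay closer, at 716, 586 and 1122 against 200, 278, 164 and 531 for AGT and at 728, 1853 and 724 against 293, 385, 320 and 702 for CFD.

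The lower genes besides FAS were VEZT, COL9A3, POT1, IMPA1, HACL1, EHD1, SLC34A2, DHX34, MOCS1, LIPT2, ALDOC, ATP6V1C2, POLE3 and FAM89A, with log2 fold changes from -2.94 for LIPT2 to -0.65 for ALDOC. VEZT, a protein of adherens junctions, was at 329, 363 and 159 after TGFBRi and at 519, 700, 529 and 675 after vehicle. COL9A3, a chain of collagen IX, was at 853, 332 and 995 against 1666, 1272, 1112 and 1258. SLC34A2, the sodium phosphate cotransporter of secretory epithelium, was at 3633, 1150 and 3010 against 4025, 4019, 4106 and 8677. For SLC34A2 the gap between the arms was narrow, and the mean difference leaned on the high vehicle rat 4. POT1, which protects telomere ends, was at 75.5, 45.2 and 3.2 against 107.2, 105.4, 120 and 216.

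The milk protein genes formed the list with the lowest median. All 12 members had log2 fold changes below 0, with a median of -1.28 against 0.02 over all genes, none passed by limma, 3 had an unadjusted p under 0.05, and in none did the arms separate. Of all 13590 genes, 149 (1.1%) had an unadjusted p under 0.05 and were lower. CSN1S2A, an alpha-S2 casein, was at 1908, 757 and 244 normalized counts in TGFBRi rats 1 to 3 and at 5248, 4358, 948 and 22891 in vehicle rats 1 to 4. Vehicle rat 3 lay inside the range of the treated rats and vehicle rat 4 far above all others. The log2 fold change was -2.74 ± 0.76 (SE), with an unadjusted p of 0.00211 and an adjusted p of 1 by limma. CSN2, beta-casein, spanned 584 to 1364168 among the vehicle rats, a range that held the treated values of 82497, 28902 and 7111, and its log2 fold change was -1.17 ± 1.74 (SE). CSN1S1, alpha-S1 casein, was at 35104, 33664 and 18760 against 64473, 157869, 16827 and 172903, and CSN3, kappa-casein, at 187360, 228995 and 175214 against 208698, 443803, 145033 and 800545.

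The 12 genes took 1.62, 1.38 and 0.966% of the reads on genes in TGFBRi rats 1 to 3 and 3, 3.1, 0.823 and 9.93% in vehicle rats 1 to 4. The treated rats were thus low and close together, while the vehicle rats ran from below them to far above. Without vehicle rat 4 the median of the list was -0.50, and without vehicle rat 3 it was -1.98. The CD45+ library of vehicle rat 4 also held the most CSN1S2A, at 382 against 2.16 to 49.6 in the other 6 rats. ELF5, the transcription factor that drives alveolar differentiation, was at 188, 51.8 and 179 against 173, 320, 251 and 640, with a log2 fold change of -1.34 ± 0.48 (SE, unadjusted p 0.0123 and adjusted p 1 by limma). PLIN2, which coats lipid droplets, was at 111674, 85726 and 119372 against 144236, 221168, 109088 and 241822. Its arms overlapped through vehicle rat 3, the rat that was also low in caseins.

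The casein windows are shown because these genes had the same lean and because casein promoters are known for STAT5 elements. Capitals mark TTCNNNGAA, which reads the same on both strands. The sequences are RefSeq GRCr8, Csn1s2a at chr14:20574472-20574721 and Csn1s1 at chr14:20638850-20639099 on the minus strand and Csn2 at chr14:20601574-20601823 on the plus strand.
Csn1s2a: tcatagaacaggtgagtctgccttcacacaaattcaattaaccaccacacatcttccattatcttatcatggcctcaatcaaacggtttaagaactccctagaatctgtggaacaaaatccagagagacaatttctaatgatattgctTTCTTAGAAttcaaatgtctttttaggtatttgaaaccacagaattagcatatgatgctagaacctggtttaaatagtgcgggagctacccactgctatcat
Csn1s1: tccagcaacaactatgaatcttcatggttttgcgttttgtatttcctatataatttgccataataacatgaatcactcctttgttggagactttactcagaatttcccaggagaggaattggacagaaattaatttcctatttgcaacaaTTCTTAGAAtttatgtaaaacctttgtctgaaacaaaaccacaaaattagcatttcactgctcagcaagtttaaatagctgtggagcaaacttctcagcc
Csn2: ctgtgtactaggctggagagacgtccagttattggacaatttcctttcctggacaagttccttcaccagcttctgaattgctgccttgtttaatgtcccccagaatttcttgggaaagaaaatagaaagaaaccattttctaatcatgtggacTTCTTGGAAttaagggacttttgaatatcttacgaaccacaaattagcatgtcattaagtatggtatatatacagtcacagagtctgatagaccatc
The match ended 94, 92 and 89 bases before the start sites, in order, and was absent from the same window of Csn3. The element was present in 7.67% of all 33469 windows.

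**Figure D2:**
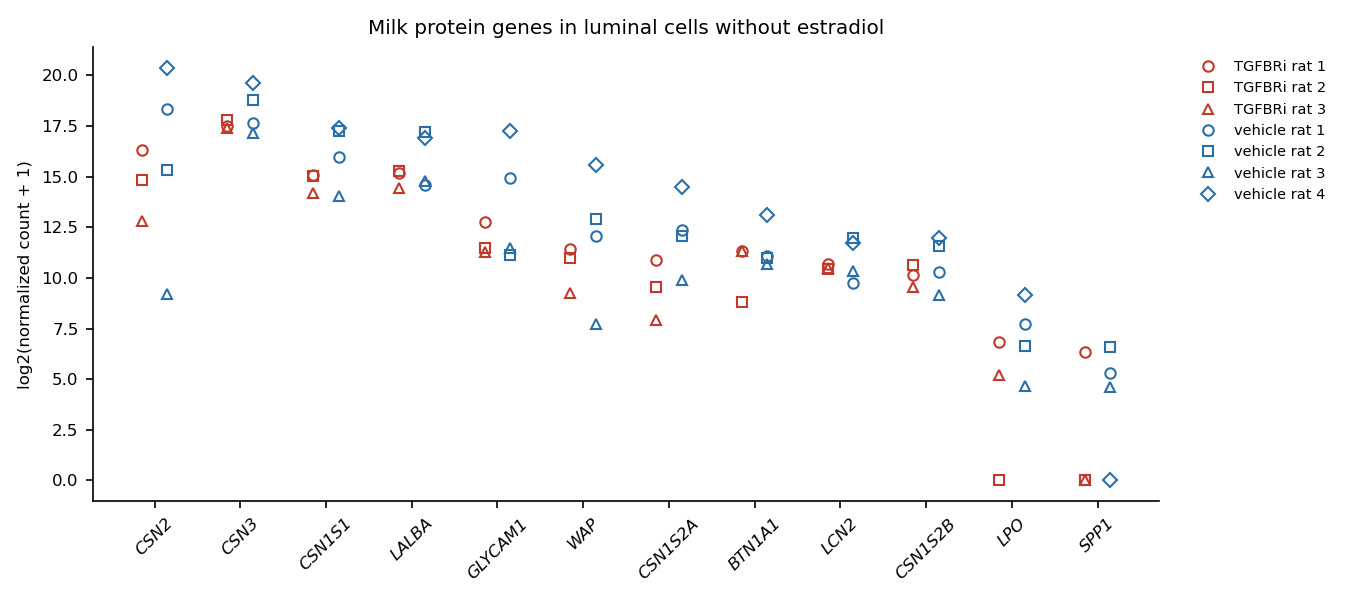
Normalized counts on the log2(value + 1) scale for the 12 milk protein genes in the 7 luminal libraries without E2, with a symbol for each rat. The red TGFBRi symbols mostly lie among or below the blue vehicle symbols, and vehicle rat 4 is the highest for 9 of the 12 genes.

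Components of the TGFβ pathway itself held no call. None of the 20 ligand and receptor genes passed by limma or had an unadjusted p under 0.05, 11 were above 0 and 9 below, and their median log2 fold change was 0.16. The median was 0.62 without TGFBRi rat 2, -0.09 without TGFBRi rat 3 and -0.07 without vehicle rat 2. TGFBR1, the type I receptor that the drug inhibits, was at 1872, 349 and 1669 after TGFBRi and at 2374, 322, 1556 and 2240 after vehicle, and TGFBR2, the type II receptor, at 1273, 444 and 1439 against 1410, 374, 851 and 934. TGFBRi rat 2 and vehicle rat 2 were low for both receptors. TGFB3, the ligand with the highest count, was at 3213, 959 and 3259 against 1088, 2161, 3482 and 5464. The arms did not overlap for ACVR1 and ACVRL1, type I receptors of the BMP branch, which were at 76.4, 102.3 and 145 against 20, 58, 28.1 and 53.1 and at 79.7, 75.7 and 210 against 30.9, 27.7, 70.9 and 5.77. That is 2 of 20 genes, where 295 of all 13590 genes (2.17%) did not overlap with TGFBRi higher.

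Of the 14 SMAD and feedback genes, SMAD4 had an unadjusted p under 0.05 on the higher side and TGIF1 on the lower, against 2.08% and 1.1% of all genes. SMAD4, the partner shared by the TGFβ and BMP branches, was at 3475, 1571 and 3285 after TGFBRi and at 1111, 992, 2119 and 598 after vehicle. Only vehicle rat 3 exceeded the lowest treated rat. The log2 fold change was 1.27 ± 0.52 (SE, adjusted p 1 by limma). With E2 the same gene was at 523 to 3533 in tumor-free TGFBRi rats and at 377 to 574 in tumor-bearing vehicle rats. TGIF1, a repressor that acts with SMADs, was at 5274, 7719 and 6319 against 6275, 10413, 9569 and 12038. SMAD7, the inhibitory SMAD that TGFβ induces, was at 1200, 351 and 1716 against 738, 394, 1129 and 1099, with a log2 fold change of 0.21 ± 0.52 (SE). The median of the list was -0.01, and that of 21 TGFβ target genes was 0.41. The median of the targets was 0.14 with edgeR and 0.73 without TGFBRi rat 2.

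Hormone-sensing and progenitor genes held no call by limma. All 13 mature luminal genes tested had log2 fold changes above 0, with a median of 0.79, but the arms overlapped in every one and none had an unadjusted p under 0.05. The median was 0.41 without vehicle rat 2. PGR, the progesterone receptor, was at 3389, 1451 and 2332 after TGFBRi and at 1810, 582, 4051 and 682 after vehicle. ESR1, the estrogen receptor, was at 729, 129 and 539 against 263, 81.7, 583 and 200, and PRLR, the prolactin receptor, at 2163, 2971 and 3749 against 1209, 1298, 2755 and 1610. Vehicle rat 3 was the highest control for all 3 of these, and its milk protein share was the lowest. Of the 13 luminal progenitor genes, 11 were below 0, with a median of -0.61 that was -0.05 without vehicle rat 4 and -0.16 without TGFBRi rat 2. KIT, the progenitor receptor kinase, was at 2190, 171 and 3209 against 1985, 366, 1674 and 8321. Its spread within an arm exceeded the difference between the arms. The luminal keratin and junction list had a median of -0.14 and summed to 736726 to 1106249 after TGFBRi and to 776155 to 1097191 after vehicle.

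**Figure D3:**
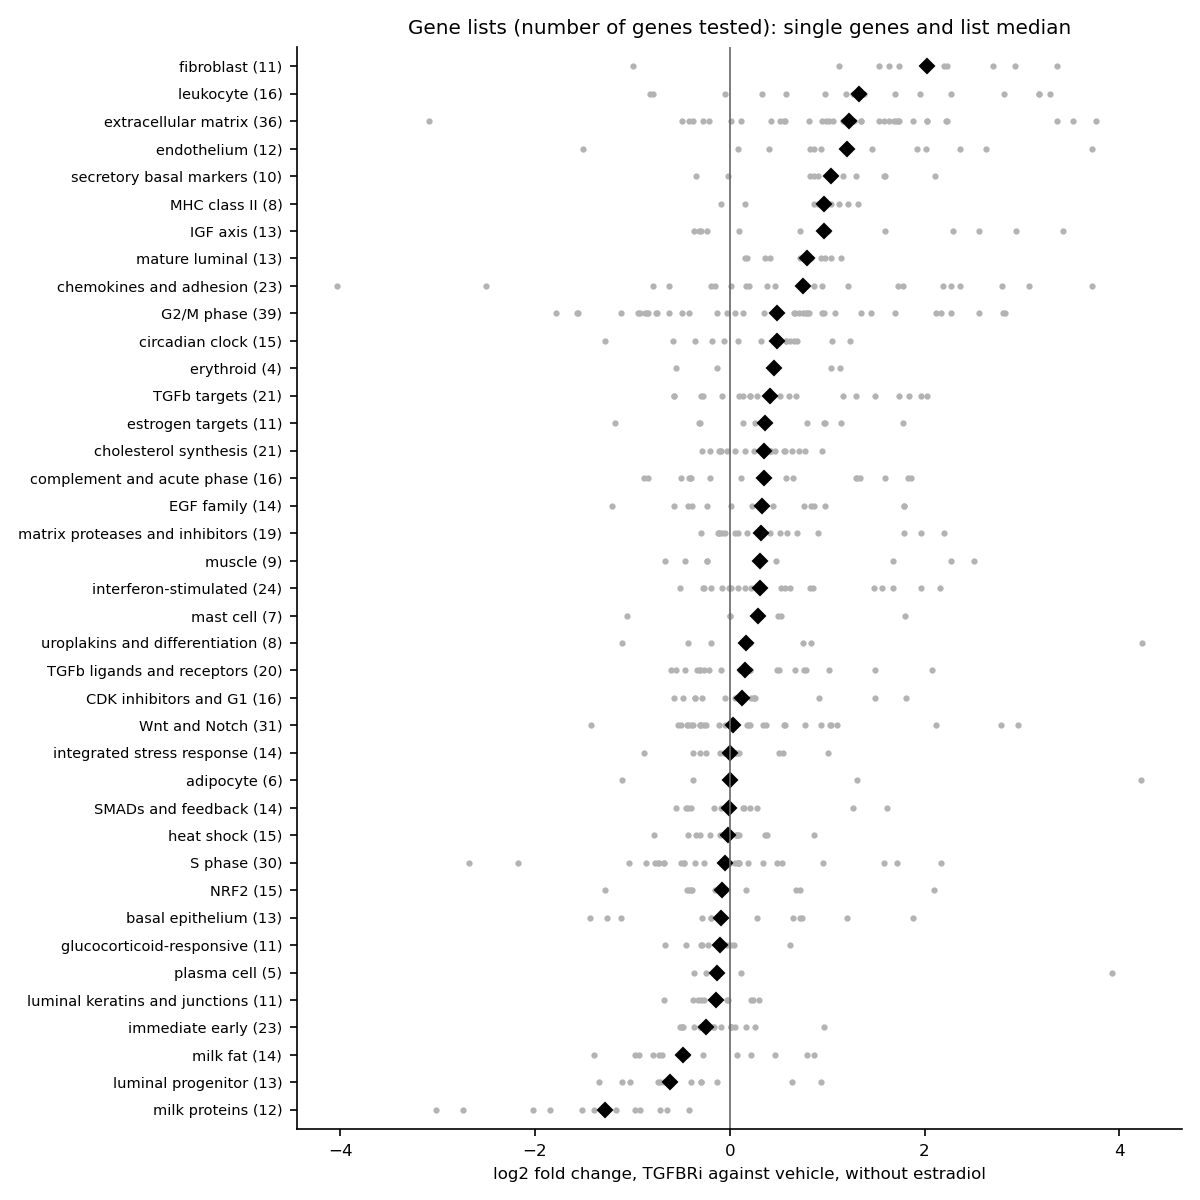
Log2 fold change of TGFBRi against vehicle without E2 for each gene of the 39 lists (gray points) and the median of each list (black diamonds). Fibroblast genes have the highest median, at 2.02, and milk protein genes the lowest, at -1.28, while lists of the stress response sit near 0.

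Matrix genes and markers of fibroblasts, leukocytes and endothelium had medians above 0 after TGFBRi, whereas those of basal epithelium and plasma cells were at -0.09 and -0.13 and adipocyte markers were mixed. Leaving out 1 rat turned the sign of both, with basal medians from -0.31 without vehicle rat 2 to 0.36 without TGFBRi rat 3 and plasma cell medians from -0.26 without vehicle rat 1 to 0.15 without vehicle rat 2. Of 6 adipocyte markers 3 were below 0 and 2 above, and for those 2, ADIPOQ and CFD, the arms did not overlap (2.17% of all genes with TGFBRi higher). A list of 10 secretory basal markers, which is not the longer signature of the study, shares genes with the matrix, IGF and endothelial lists. Its median was 1.04, with 8 of 10 genes above 0, and the arms overlapped in every one. At an unadjusted p under 0.05 by limma, 2 were higher (2.08% of all genes). The sums were 21985 to 43701 after TGFBRi and 7473 to 21467 after vehicle. The median log2 fold change was 1.22 over 36 extracellular matrix genes, of which 7 did not overlap with TGFBRi higher (2.17% of all genes) and 1 with TGFBRi lower (131 of all 13590 genes, 0.964%), and none passed by limma. SPARC, a collagen-binding glycoprotein, was at 3058, 8043 and 7319 after TGFBRi and at 1429, 1480, 1917 and 1379 after vehicle. DCN, the proteoglycan decorin, was at 4199, 24281 and 11012 against 3222, 2931, 2355 and 1943. For both genes every treated rat was above every control. COL1A1, a chain of collagen I, did overlap, at 1230, 974 and 6854 against 1534, 102.8, 528 and 1561. IGFBP6, an IGF-binding protein, was at 950, 7775 and 1792 against 600, 526, 480 and 360, and IGFBP3 at 496, 2444 and 1557 against 498, 79.1, 61.1 and 269. The IGF axis list had a median of 0.97, with 4 of 13 genes higher at an unadjusted p under 0.05, against 283 of 13590 genes (2.08%). The median was 0.49 without TGFBRi rat 3.

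The fibroblast list is not independent of these genes, since its markers include COL1A1 and DCN. Its 11 markers had a median of 2.02, 10 of them were above 0, in 4 of them the arms did not overlap with TGFBRi higher (2.17% of all genes), and none passed by limma. Summed, they reached 8361, 33005 and 30258 normalized counts in TGFBRi rats 1 to 3 and 7589, 3935, 4040 and 5763 in vehicle rats 1 to 4, with no fibroblast marker at 0 in all 7 rats. The median was 1.52 without TGFBRi rat 3 and 2.16 without TGFBRi rat 2. Of the 16 leukocyte markers, 13 were above 0, with a median of 1.33 that was 0.71 without TGFBRi rat 2, and their sums were 698, 4227 and 1550 against 1634, 896, 913 and 646. Endothelial markers summed to 17042, 5687 and 43963 against 4558, 5867, 13008 and 7384, with a median of 1.20. TGFBRi rat 2 stood apart in leukocyte genes, with 276 normalized counts of PTPRC, 213 of CD3E and 18024 of CD74, where the other 6 rats had at most 175, 96.9 and 7332. Since bulk RNA was measured, more cells of a type and more RNA per cell cannot be told apart. The part of these cells in the differences of VCAM1, the chemokines, C1QB, FGF10 and the matrix genes was not tested.

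**Figure D4:**
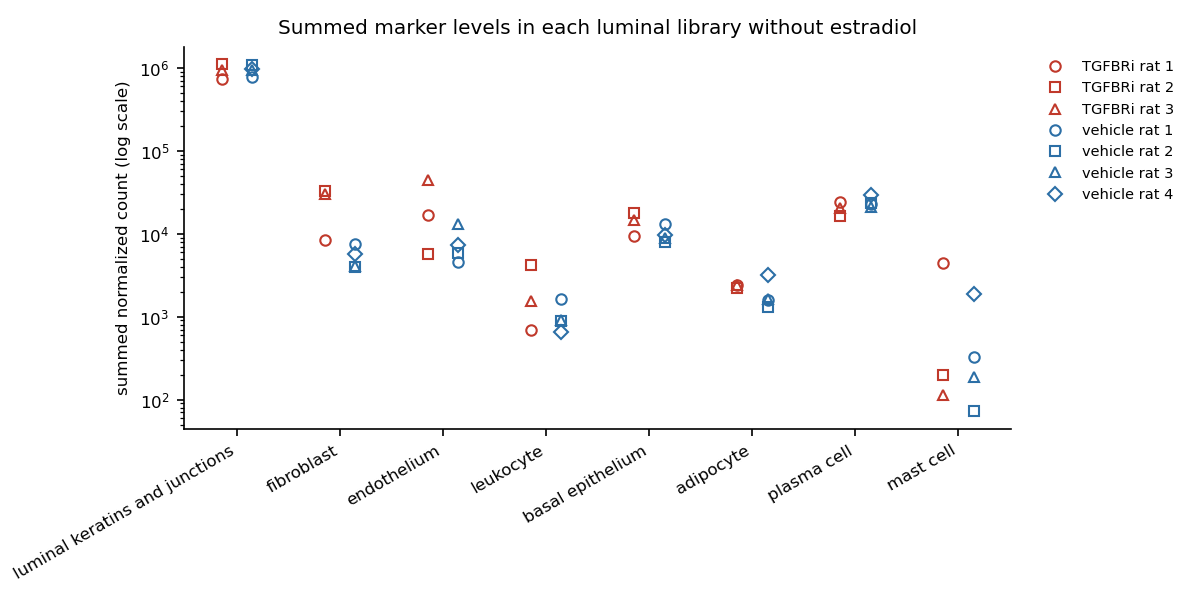
Summed normalized counts (log scale) of the marker lists in each luminal library without E2, red for TGFBRi and blue for vehicle. Luminal keratins and junctions sum to 736726 to 1106249 in the 7 libraries, and the fibroblast sum is higher in all 3 TGFBRi rats than in any vehicle rat, by a wide margin in rats 2 and 3 only.

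Of the chemokine and adhesion list, 5 of 23 genes did not overlap with TGFBRi higher (2.17% of all genes) and 1 with TGFBRi lower (0.964%). The median was 0.75, and it was 0.25 without vehicle rat 4, 0.45 without TGFBRi rat 3, 0.19 by edgeR and 0.23 by DESeq2. The lower one was CCL5, a T cell chemokine, at 0, 3.99 and 0 after TGFBRi and at 14.5, 65.9, 19.6 and 27.7 after vehicle. CXCL1, a neutrophil chemokine, was at 310869, 224101 and 241390 against 173705, 966359, 163319 and 241454, the high value in vehicle rat 2. Mitotic genes were also highest in vehicle rat 2, where the 39 genes summed to 12515, against 2325 to 3892 in the other 6 rats. Their median had no stable sign, and none passed by limma. It was 0.49 by limma, -0.54 by edgeR and -0.51 by DESeq2, and with limma 1.48 without vehicle rat 2, 0.13 without TGFBRi rat 1, 0.26 without TGFBRi rat 2, 0.80 without TGFBRi rat 3 and between -0.06 and -0.03 without vehicle rat 1, 3 or 4. The heat shock, integrated stress response and NRF2 lists had medians of -0.02, 0.00 and -0.08. The integrated stress response median was 0.28 without TGFBRi rat 1 and -0.27 without TGFBRi rat 2. That of heat shock was -0.24 without TGFBRi rat 3 and 0.11 without vehicle rat 3. Over all 39 lists, 40 of 561 genes tested had an unadjusted p under 0.05 by limma (7.13%), against 432 of 13590 genes (3.18%). The lists were chosen with earlier results of these data known, so these shares are no test of an excess. No list gene passed the adjusted threshold by limma, while DESeq2 called VCAM1 and the mature luminal gene LY6D, which had a read in 1 of the 7 rats.

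The count test of DESeq2 called 15 genes in this comparison, 6 higher and 9 lower, which is 0.113% of the 13331 genes to which it gave an adjusted p. VCAM1 and FAS were the 2 with more than 3 reads in all 7 rats, and the arms overlapped for the other 13. Those 13 had more than 3 reads in at most 3 rats. SERPINB2, a serine protease inhibitor, was at 756 and 18.4 in vehicle rats 1 and 2 and at 0 in the other 5 rats. CTLA4, a T cell inhibitory receptor, was at 14.6 and 48 in TGFBRi rats 2 and 3 and at 0 in the other rats without E2. LBHD2 was at 88.1 in vehicle rat 1 and at 0 in the other rats without E2. DSCC1 and MYBL2, genes of DNA replication and the cell cycle, peaked among the 7 rats in vehicle rat 2, at 124 and 137. The remaining calls were AOC1, CHRM3, CNTN2, IL36RN, LY6D, LYNX1, OLFML1 and RGD1563349, with at most 93.7 normalized counts in any of the 7 rats. By edgeR's quasi-likelihood test 0 genes were called, 520 (3.83%) had an unadjusted p under 0.05 and the smallest adjusted p was 1.

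For genes with a mean of 50 or more, the median half-width of the 95% interval of the log2 fold change was 0.86, with quartiles of 0.65 and 1.24. These intervals are not adjusted for the number of genes, and differences as large as those of VCAM1, CCL7 and FAS did not pass the adjusted threshold by limma.

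Genes that passed right after dosing in other rats held no call by limma in these libraries, and 1 of them, MYBL2, was called by DESeq2. In young ACI rats dosed for 10 days from about 35 days of age, 125 genes rose (0.823% of 15181 genes) and 28 fell (0.184%) in luminal cells at day 0 after the last dose, by limma with 3 rats per arm, together 1.01%. These calls leaned on single libraries. TGFBRi rats 1 and 2 of day 0 had 10192039 and 8922897 reads on genes, the fewest of the 18 young libraries, with 15060 and 15143 genes detected, against 12976 in the third treated rat and 12096 to 13296 in the vehicle rats. Without both of them, 11 genes were higher and 42 lower, of which 4 and 7 were among the 125 and the 28, the lone treated rat being assumed to vary like the other groups. Leaving out 1 rat gave 0 genes called without vehicle rat 2 or 3, 38 without vehicle rat 1, 11 without TGFBRi rat 1, 3 without TGFBRi rat 2 and 2358 without TGFBRi rat 3. The medians in the 7 rats also moved with these choices. The lists called without both shallow libraries had medians here of 0.24 for the higher and -0.40 for the lower genes. The lower list had -0.51 over 10 genes without vehicle rat 1 and -0.50 over 7 without TGFBRi rat 1. In the same 2 fits the higher list had 0.00 over 25 genes and -0.00 over 3. Without TGFBRi rat 2 each list had 1 gene tested here, at -0.70 for the higher and -1.11 for the lower. Without TGFBRi rat 3 the medians were 0.05 over 977 higher and -0.05 over 74 lower genes. The values that follow describe the 2 lists as called with all 6 rats. Of the 125, 96 were tested here, and their median log2 fold change was 0.00, where it was 3.87 at day 0. They split into 47 above 0, 39 below and the rest at 0.00, among which the median fell, and none passed by limma. Of the 28, 27 were tested, with a median of -0.05 here and -2.36 at day 0. At an unadjusted p under 0.05 by limma, IFI47 and KIFC1 of these were higher here (2.08% of all genes). MYBL2 was lower (1.1% of all genes), as it was at day 0, but its arms overlapped and only 2 of the 7 rats had more than 3 reads of it. GSDMD did not overlap with TGFBRi higher (2.17% of all genes). In the young rats the full lists had medians of 0.48 and -0.87 at day 7 and of 0.27 and -0.15 at day 14, and in adult virgin rats dosed at 18 to 24 weeks of age 0.30 over 112 and -0.40 over 27 genes, each comparison having its own control rats. No gene passed by limma at day 7, at day 14 or in the adult virgin rats, where 1172 (7.72%), 1268 (8.35%) and 976 genes (6.85%) had an unadjusted p under 0.05.

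Of the 96 genes of the higher list, 4 (ADAMTS5, CCL24, DDR2 and PTPRO) did not overlap with TGFBRi higher here, where 2.17% of all genes did so. At an unadjusted p under 0.05, 6 were higher (ADH6, CCL24, DDR2, FOLH1, OLIG1 and PTPRO) and 4 lower (ALOX15, LPO, SSPO and VPREB2), against 2.08% and 1.1% of all genes. Those described next were chosen after their values were seen. CCL24, an eosinophil chemokine, was at 127, 102.3 and 75.4 after TGFBRi and at 0.908, 0, 0 and 15 after vehicle, a log2 fold change of 5.41 ± 1.59 (SE, unadjusted p 0.0032 and adjusted p 1 by limma), beside 4.21 at day 0. PTPRO, a receptor tyrosine phosphatase, was at 106.6, 15.9 and 85.9 against 0.908, 1.32, 0 and 8.08. DDR2, a collagen receptor of mesenchymal cells, was at 131, 218 and 504 against 64.5, 59.3, 41.6 and 10.4. The opposite held for LPO, the lactoperoxidase of milk, which was higher by 4.07 at day 0 and lower by 3.02 here on the log2 scale, at 114, 0 and 36.1 against 207, 97.5, 24.4 and 573. FGF10 and PCDHA8 had log2 fold changes of 1.63 ± 0.97 and 1.93 ± 1.04 (SE) at day 0, with adjusted p of 0.386 and 0.323 by limma. CSN1S2A differed by 0.94 at day 0, -3.92 at day 7, -3.53 at day 14 and 0.03 in the adult rats, beside -2.74 here. It passed by limma in none of these comparisons, and whether they share a change was not tested.

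**Figure D5:**
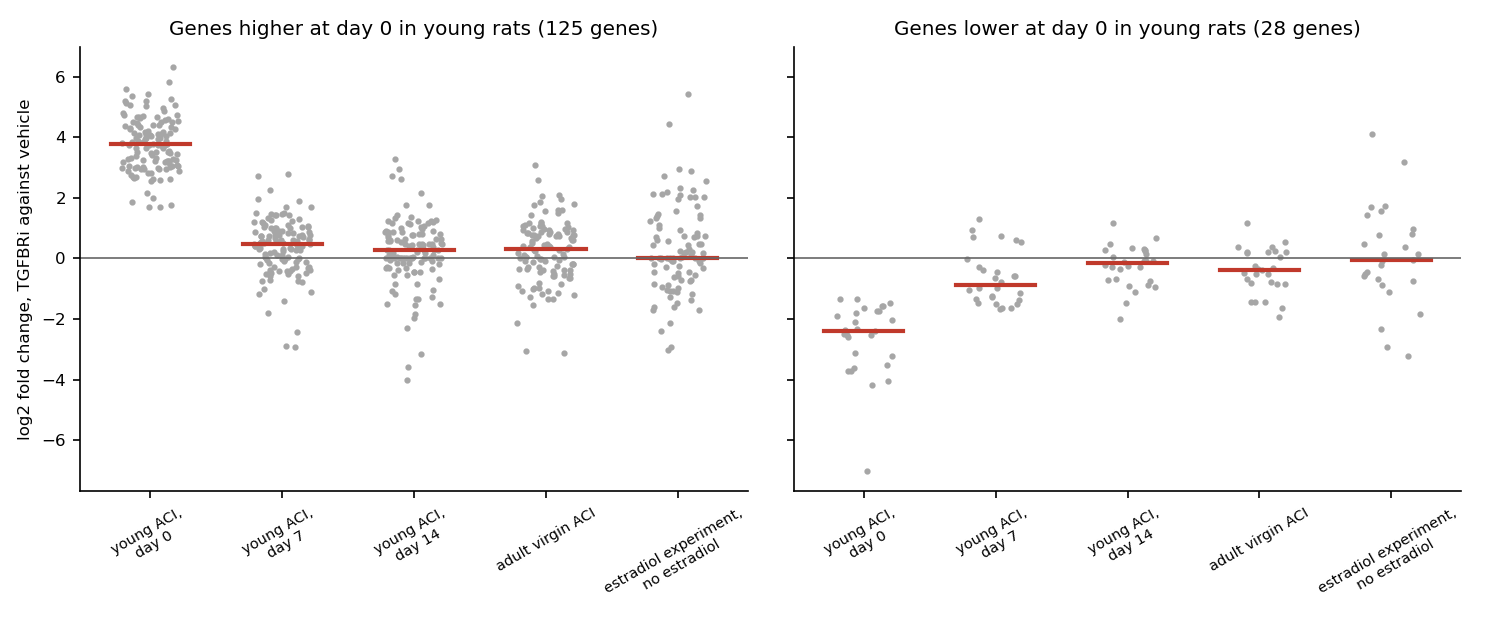
Log2 fold change of TGFBRi against vehicle in 5 luminal comparisons for the genes that passed at day 0 in young ACI rats, left those higher and right those lower, with a red line at the median. The separation at day 0 chose the genes. In the estradiol experiment the medians are 0.00 and -0.05, or 0.24 and -0.40 for the lists called without the 2 shallow TGFBRi libraries of day 0. For the longer lists called without TGFBRi rat 3 of day 0 they are 0.05 and -0.05. The median of 0.00 falls among genes at 0.00 there, with 47 genes above 0 and 39 below.

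Whether the difference between the arms depended on E2 was tested as an interaction over the 17 rats of the experiment. The rats with E2 entered it as tumor-free TGFBRi against tumor-bearing vehicle, so the test also holds tumor status. No gene passed by limma, and 579 of 13590 (4.26%) had an unadjusted p under 0.05, while DESeq2 called 17 of 13590 genes, 5 higher and 12 lower. Among them SERPINB2, CTLA4, LBHD2, LYNX1, RGD1563349, DSCC1, IL36RN and MYBL2 had more than 3 reads in at most 3 of the 7 rats without E2. The estimates reached -49.50 for SERPINB2 and 43.33 for CTLA4 (log2), so the calls of the genes just named lean on values near 0. The other calls were ADIPOQ, BMP4, CD79B, IDI2, LGALS7, MYCL, NPY1R, PRKCQ and SOSTDC1. Their estimates ran from -20.99 for NPY1R to 25.73 for CD79B. BMP4 had the smallest in size, 3.97 with an adjusted p of 0.00715 by DESeq2. FGF10 and PCDHA8, without a read in the rats with E2, had interaction estimates equal to their effects without E2 by construction, which say nothing of a dependence on E2. AGT differed by 3.01 ± 0.74 (SE), being higher after TGFBRi without E2 and at 307 to 1652 against 1306 to 1926 with E2. In the CD45+ leukocytes of the same 7 rats no gene passed by limma, edgeR or DESeq2, and 330 of 13483 (2.45%) had an unadjusted p under 0.05 by limma.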

How the data were processed

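Luminal RNA of the 7 rats was read from low-input SMARTer libraries. The authors aligned reads with STAR 2.5.1b to rn6, counted them with HTSeq without strand and scaled them with DESeq2 1.30.1, and the deposited values are normalized read counts, a signal of reads divided by a size factor. Whole reads were recovered from 100% of values within 0.001. Rows for reads on no gene (33.0 to 40.6% of the reads in these libraries) were left out. Genes with a summed value of 10 or more were fitted as log2(value + 1) with limma 3.58.1 (trend, robust, Benjamini-Hochberg) over all 17 rats of the experiment, each group having a mean, and the parts of 1 rat with E2 were averaged. edgeR 4.0.16 and DESeq2 1.42.0 were run on the recovered reads as alternatives, and scripts were tested on simulated data. Named genes were non-overlapping genes with a mean of 50 or more, up to 15 per direction, passing ones first, then by unadjusted p, plus members of the 39 lists. The members and the lists were chosen with earlier results of these data known. Ratios to a count of 0 use a limit of 3 reads, which covers counting error only. Single-cell files were not used here.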

Additional observations from a re-analysis of the deposited data

Results flagged for a closer look

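In the 4 vehicle rats, 1 value lay far from the other 3 for 6 of 45 measures tested, by Dixon's test. Chance flags about 1 in 20 groups of independent, normally spread values. These were counts not on a log scale, some were of genes chosen for high vehicle values, and most flags share 1 rat. The number of flags was therefore not compared with that rate. Vehicle rat 4 was the high one for 5 of them, with 49345 normalized counts of WAP, 8825 of BTN1A1, 8677 of SLC34A2, 690 of MOCS1 and 216 of POT1. Vehicle rat 2 was high for IMPA1, at 399. WAP, the whey acidic protein, and BTN1A1, butyrophilin of the milk fat globule, are milk genes, and the other vehicle rats had 209 to 7785 and 1662 to 2167. Without vehicle rat 4 the median log2 fold change of the milk protein genes was -0.50 in place of -1.28.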

How the results depend on the processing

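Against 2 genes called in the luminal comparison, edgeR called 0, DESeq2 15, a filter on a mean of 10 or more 0 (it removes both genes) and a fit of the 7 rats alone 0. In the fit of 17 rats, the rats with E2 entered the estimated spread of these 2 genes as constant values of 0. Leaving out 1 rat gave 0 to 5 calls: 0 without vehicle rat 1, 2 or 4 or TGFBRi rat 3, 3 without vehicle rat 3 (GNB4 added) and 5 without TGFBRi rat 1 (ANKEF1, CYP2C11 and WSCD1 added). TMM rescaling, no filter, pseudocounts of 0.5 and 5 and the first part of the split library each called FGF10 and PCDHA8. The interaction gave 0 calls by limma and 17 by DESeq2. The 153 day 0 calls in young rats became 53 without both shallow TGFBRi libraries and 0 to 2358 without single rats, alternatives chosen after seeing the data. No other count changed by more than 1.5 times. List medians moved by more than the spread between rats in 16 of 623 cases. With edgeR the medians were 0.14 for TGFβ targets, 0.19 for chemokines and adhesion, -0.33 for uroplakins and 1.31 for mast cell genes, and with DESeq2 0.18 for TGFβ targets; the cause was not tested. Over the single rats left out they ranged from -0.23 to -0.04 for luminal keratins, 0.31 to 0.73 for TGFβ targets, -0.02 to 0.26 for CDK inhibitors, 0.49 to 1.29 for the IGF axis, -0.31 to 0.55 for Wnt and Notch, 0.18 to 0.77 for complement, -0.37 to 0.57 for uroplakins and -0.28 to 0.43 for adipocyte genes. The erythroid list had no gene left at a mean of 10 or more. Lower depth limits the low genes most: FGF10 and PCDHA8 rested on 11 to 48 reads a library. No paired analysis was possible because replicate numbers were given in accession order and the arms are different rats.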
